A study of Mus musculus with 34 samples.

Results

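The 28 genes described here encode the enzymes and regulators of cholesterol and fatty acid synthesis, and the measurement is the accessibility of their chromatin in mouse hair follicle stem cells (HFSCs). They are 28 of the 21581 protein-coding genes of the mm39 annotation. The ATAC-seq peaks assigned to them were those whose summit lay in the gene body, up to 50 kb upstream or up to 5 kb downstream. These windows held 4615 of the 1930325 peaks that 34 libraries placed on chromosomes 1 to 19, X and Y, or 0.239%. ATAC-seq marks open DNA with a transposase, and a peak is a stretch where its insertions pile up. A peak is a measure of access to DNA and not of transcription.

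The series asked how HFSCs, which engulf dying neighbours when the follicle regresses, use the nuclear receptor RXRα to do so. In culture, the 4 Rxra WT libraries of HFSCs given BEL-treated corpses stood beside 4 of Rxra WT HFSCs given untreated corpses, and 3 Rxra cKO libraries with corpses were set against the same 4. Corpses were cisplatin-killed HFSCs, and BEL (bromoenol lactone) inhibits the phospholipase A2 that releases fatty acids and lysophospholipids. There were 2 Rxra cKO and 2 Rxra WT libraries with arachidonic acid (AA), lysophosphatidylcholine (LPC) and retinoic acid (RA), and 2 Rxra cKO and 2 Rxra WT libraries in medium alone. From skin came 3 Rxra cKO and 4 Rxra WT libraries at late catagen (CatVII, the end of follicle regression), 6 wild-type libraries at CatVII and 2 wild-type libraries at AnaVI (late anagen, the end of growth). In skin, the Rxra cKO (Rxra fl/fl) and Rxra WT (Rxra +/+) cells sorted for ATAC-seq both carried Sox9-creER and an R26-YFP reporter, with tamoxifen given to both genotypes. The cultured lines carried Sox9-creER and R26-YFP on Rxra fl/fl or Rxra +/+, were recombined with hydroxytamoxifen, sorted for YFP and grown on feeder fibroblasts. Sox9-creER acts in Sox9-expressing cells, so the deletion is confined to that lineage. Ages were not given in the labels. The study calls the libraries biological replicates, and titles of the skin Rxra libraries number them m1 to m4 and m1 to m3. The stored peak names, however, put Rxra cKO replicates 2 and 3 both under m2, as NonPhago and Phago, and number the 6 CatVII wild-type libraries 1 to 3 as Phago and 1 to 3 as NonPhago. Skin Rxra WT replicates 2 to 4 are stored as P37 HFSC NonPhago 4 to 6, numbers that run on from the wild-type ones. In culture, the Rxra WT libraries with corpses, BEL-treated or not, are stored as NonPhago 1 and 2 and Phago 1 and 2. Some libraries may therefore be fractions of the same animal or culture, and p-values speak for the spread between libraries, which may be technical.

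Cholesterol is built from acetyl-CoA through the mevalonate pathway, squalene and a chain of sterol intermediates, and fatty acids through malonyl-CoA. Both routes are switched on by SREBP transcription factors. The precursor sits in the endoplasmic reticulum with its escort Scap, which Insig1 and Insig2 hold back when sterols are plentiful. When sterols run low, Scap carries the precursor to the Golgi, where the proteases encoded by Mbtps1 and Mbtps2 release the active factor. It then binds sterol regulatory elements, usually with NF-Y and Sp1 bound nearby. RXRs pair with other nuclear receptors, among them the oxysterol receptors LXR and the retinoic acid receptors. In skin, lipid synthesis feeds the sebaceous gland and the barrier of the epidermis.

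Promoter letters are given first, to place the peaks beside the start sites and known elements. In the GRCm39 genome, the window from 250 bases before to 50 bases after the canonical transcript start was searched on both strands. The sterol element TCACNCCAC was found in 3 of 28 members (10.7%), which were Acaca, Fasn and Hmgcs1, against 1.34% of all protein-coding genes. The NF-Y box CCAAT was found in 19 of 28 (67.9%, against 39.8% of all genes) and the Sp box GGGCGG in 20 of 28 (71.4%, against 42.6%). The E-box CACGTG was found in 5 of 28 (17.9%, against 7.83%). The nuclear receptor half-site AGGTCA was found in 3 of 28 (10.7%, against 15.2%), in Elovl6, Insig1 and Scd2. Direct repeats of the half-site spaced by 2 or by 5 bases were found in 0 of 28, against 0.00927% and 0.00463% of all genes. With only 2 and 1 of 21581 genes holding such an exact repeat, the 0 says nothing about the members. Enhancers were not searched. A match is a description of the letters and not of a bound site, and sites that differ from these letters were not searched for.

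Hmgcs1, HMG-CoA synthase, is shown because it holds the sterol element beside its peak summits. The sequence is chr13:120151732-120151914 on the plus strand, and capitals mark TCACNCCAC and CCAAT on either strand here and below.
Hmgcs1: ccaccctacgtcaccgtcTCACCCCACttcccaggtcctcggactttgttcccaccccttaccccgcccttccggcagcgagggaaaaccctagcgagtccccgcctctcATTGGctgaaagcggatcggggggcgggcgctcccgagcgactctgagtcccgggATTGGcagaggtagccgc
Peaks overlapped it in 31 of 34 libraries, and the median summit at position 120151762 lies just past the element at 120151750 to 120151758. The same element in Fasn, fatty acid synthase, lies in chr11:120715063-120715092 on the minus strand, which peaks overlapped in 26 of 34 libraries.
Fasn: gcgcgcgggcaTCACCCCACcggcggcggc
Idi1, isopentenyl diphosphate isomerase, is shown because its promoter is called in more than 1 comparison below. It has no match to TCACNCCAC in the window but 3 NF-Y boxes in opposite orientation to the gene. Of these boxes, 2 lie in chr13:8935868-8935897 on the plus strand, a stretch overlapped by a peak in 33 of 34 libraries.
Idi1: tgtgctagATTGGcaATTGGctggaggcat
Msmo1, a sterol methyl oxidase, had the highest mean promoter level of the members and is shown from chr8:65186827-65187076 on the minus strand, overlapped in 32 of 34 libraries.
Msmo1: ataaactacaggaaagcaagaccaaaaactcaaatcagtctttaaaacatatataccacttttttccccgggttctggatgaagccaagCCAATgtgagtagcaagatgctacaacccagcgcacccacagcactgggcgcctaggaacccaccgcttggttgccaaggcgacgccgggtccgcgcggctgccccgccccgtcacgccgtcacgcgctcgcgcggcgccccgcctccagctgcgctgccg
In Acaca, acetyl-CoA carboxylase, the element lies beside a start that no peak overlapped in any of 34 libraries. The promoter peaks of Acaca lay at another start, with a median summit 6430 bases downstream of the canonical one.

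Each library came as a peak list, with no read counts. Lists held between 4111 and 129597 peaks on these chromosomes, and the 4 medium libraries between 4111 and 5709. The promoter level used below is therefore a rank. In each library, a gene took the best −log10 p of any summit within 1 kb of one of its annotated starts, and its percentile among all 21581 protein-coding genes was taken, genes with no such peak sharing the lowest place. A percentile of 99 means that 99% of genes had a weaker promoter peak or none. Libraries in a comparison were first trimmed to lists of equal length, the length of the shortest. Differences are in percentile points and were tested with limma over all genes with a promoter peak in at least as many libraries as the smaller group had, with Benjamini-Hochberg adjustment.

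Most members had an open promoter in HFSCs outside medium. With all called peaks, 15 to 28 of 28 members had a promoter peak in each of these libraries, beside 21.4% to 65.9% of all protein-coding genes. In medium 6 to 14 members had one, beside 4.98% to 15.7% of all genes. In the untrimmed lists, Acat2, Idi1 and Msmo1 had a promoter peak in 34 of 34 libraries, and Mvk, Cyp51 and Hsd17b7 in 33. The mean percentile over libraries was 98.24 ± 2.26 (SD, n = 34) for Msmo1, 96.56 ± 3.85 for Idi1 and 96.30 ± 8.96 for Hsd17b7, which encodes a ketosteroid reductase. Early mevalonate enzymes were close behind, with Hmgcs1 at 92.53 ± 12.78 and the thiolase Acat2 at 92.43 ± 5.16. The regulators were lower, at 84.57 ± 14.27 for Insig1, 80.37 ± 17.69 for Insig2, 79.77 ± 13.27 for Srebf2, which encodes SREBP2, and 71.50 ± 14.86 for Scap. The fatty acid genes were widely spread. Fasn averaged 72.68 ± 14.82, Acaca 71.01 ± 13.89, the stearoyl-CoA desaturases Scd1 60.99 ± 15.69 and Scd2 43.97 ± 13.03, and the elongase Elovl6 31.69 ± 10.57. Elovl6 had a promoter peak in 8 of 34 libraries, while Scd2 and the cholesterol esterification enzyme Soat1 had one in 19, and Pmvk and Tm7sf2 in 24. Soat1 averaged 43.71 ± 11.89, Pmvk 51.87 ± 10.93, Tm7sf2 54.88 ± 15.54 and Ebp 59.60 ± 15.43. Neighbouring values in this order lie within their spread. Of the 4615 peaks in the windows, 23.3% were at a member's promoter, 23.3% upstream, 18.6% in introns, and 14.6% at the promoter of another gene.

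**Figure D1:**
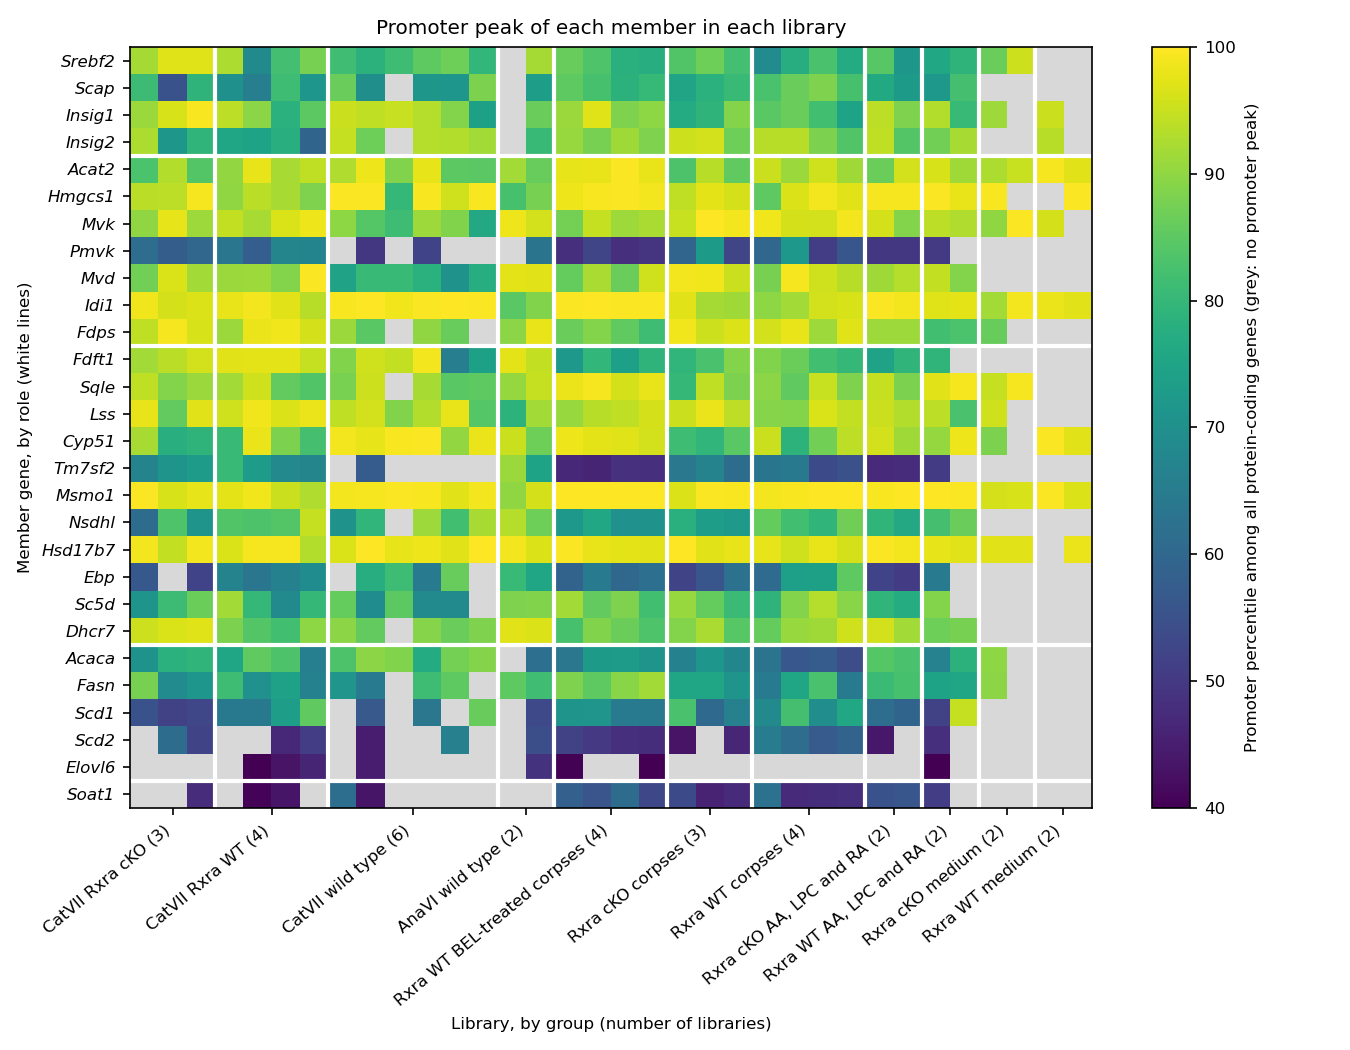
Promoter percentile of each member (rows, by role) in each of 34 libraries (columns, by group), with all called peaks; grey marks no promoter peak. Msmo1, Idi1 and Acat2 were filled in all 34 libraries and Elovl6 in 8. The medium libraries were mostly grey, with 6 to 14 of 28 members beside 4.98% to 15.7% of all genes.

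Other genes start beside 4 of the member promoters. The median summit of Mvk lay 112 bp from the start of Mmab, that of Tm7sf2 2 bp from Vps51 and at -700 bp (upstream) of its own nearest start, that of Nsdhl 33 bp from Cetn2 and that of Dhcr7 141 bp from Nadsyn1. Promoter values of these members cannot be told apart from those of their neighbours.

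BEL-treated corpses gave the most calls. Promoters of 6 members ranked higher in HFSCs given BEL-treated corpses than in HFSCs given untreated corpses, and 5 ranked lower, of 27 members tested (Elovl6 did not pass the filter). Idi1, Acat2 and Sqle moved to the top of the lists, and Fasn, Acaca and Insig1 rose by 9.61 to 16.65 points, while Fdps, Mvk, Nsdhl, Tm7sf2 and Scd2 fell. Over all 12446 genes tested, 15.2% were higher and 11.8% lower with BEL-treated corpses, so calls in both directions were also common among genes at large, and the 11 members (40.7% of those tested) were not tested as a list. The median difference was -0.22 points over the tested members and 1.28 points over all genes. Both directions occurred within the mevalonate, sterol and fatty acid groups.

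Among the mevalonate genes, Idi1 read 99.63, 99.77, 99.62 and 99.72 in the 4 libraries with BEL-treated corpses, and at 89.82, 91.66, 95.81 and 96.45 in the 4 with untreated corpses. The groups did not overlap, and the BEL libraries lay within a fraction of a point of each other. The difference was 6.25 points (SE 1.50, limma with Benjamini-Hochberg adjusted p = 0.0161). In the untrimmed lists, the Idi1 peak ranked 173, 136, 171 and 130 by −log10 p with BEL-treated corpses, against 6743, 4141, 1389 and 1563 with untreated corpses. Acat2, which joins acetyl-CoA units, read 97.79, 98.09, 99.75 and 98.04 with BEL-treated corpses and 95.26, 90.91, 95.70 and 91.40 with untreated corpses. Its groups did not overlap either, and the difference was 5.10 points (SE 1.34, limma adjusted p = 0.0228). Hmgcs1, the member with the sterol element beside its summit, read 98.37, 99.49, 99.65 and 99.00 against 85.04, 96.81, 98.85 and 97.19. Its groups overlapped and it was not called (4.66 points, limma adjusted p = 0.207).

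Fdps, which makes farnesyl diphosphate for both sterols and protein prenylation, went the other way. It read 86.37, 88.92, 85.26 and 81.33 with BEL-treated corpses, against 95.94, 98.03, 91.28 and 97.06 with untreated corpses. Every BEL library lay below every untreated one, a difference of -10.11 points (SE 2.10, limma adjusted p = 0.00877). Mvk, mevalonate kinase, read 87.43, 94.67, 91.30 and 92.37 with BEL-treated corpses and 98.65, 96.06, 95.86 and 98.97 with untreated corpses (-5.94 points, limma adjusted p = 0.0274). Its peak is shared with Mmab, as given above.

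Of the squalene and sterol genes, Sqle, the squalene epoxidase that commits squalene to sterols, read 98.20, 99.27, 96.17 and 98.12 with BEL-treated corpses, against 89.53, 85.32, 94.93 and 88.36 with untreated corpses. The groups did not overlap (8.41 points, SE 1.93, limma adjusted p = 0.0134). Cyp51, lanosterol demethylase, read 98.46, 97.47, 97.03 and 95.83 against 95.27, 78.73, 87.33 and 93.96, and its difference of 8.37 points was not called (limma adjusted p = 0.0787). Nsdhl, a sterol dehydrogenase, read 71.98, 76.07, 70.24 and 70.71 with BEL-treated corpses and 85.88, 81.82, 79.28 and 87.03 with untreated corpses. It fell by 11.25 points (SE 2.79, limma adjusted p = 0.0183). Tm7sf2, a sterol reductase, averaged 47.38 ± 1.02 with BEL-treated corpses and 59.01 ± 5.66 with untreated corpses (SD, n = 4 each; -11.64 points, limma adjusted p = 0.0262). Both of these promoters share their peak with a neighbour. Msmo1 was at 99.97 ± 0.01 with BEL-treated corpses and 99.53 ± 0.43 with untreated corpses (SD, n = 4 each), and was not called (limma adjusted p = 0.626).

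In the fatty acid branch, Fasn read 88.39, 85.16, 89.33 and 91.67 with BEL-treated corpses, against 64.92, 75.50, 82.70 and 64.84 with untreated corpses. All 4 BEL libraries were above all 4 untreated ones, and the difference was the largest of the members called, 16.65 points (SE 4.15, limma adjusted p = 0.0187). Acaca, which makes malonyl-CoA for Fasn, read 63.70, 72.80, 73.23 and 71.09 with BEL-treated corpses and 63.17, 56.27, 57.50 and 54.29 with untreated corpses. The lowest BEL library and the highest untreated library were close together, and the difference was 12.40 points (SE 3.24, limma adjusted p = 0.0223). Scd2 read 51.83, 49.86, 48.28 and 47.85 with BEL-treated corpses, against 65.46, 61.44, 57.31 and 59.01 with untreated corpses. It fell by 11.35 points without overlap (SE 2.72, limma adjusted p = 0.0161). Scd1 averaged 67.71 ± 3.93 with BEL-treated corpses and 73.96 ± 6.34 with untreated corpses (SD, n = 4 each) and was not called (limma adjusted p = 0.23).

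Of the regulators, Insig1 was called. It read 90.86, 96.97, 88.43 and 89.88 with BEL-treated corpses, against 84.69, 86.23, 81.88 and 74.90 with untreated corpses (9.61 points, SE 2.91, limma adjusted p = 0.0377). Srebf2 averaged 81.28 ± 4.18 with BEL-treated corpses and 76.54 ± 5.68 with untreated corpses, Scap 81.62 ± 2.87 and 84.98 ± 2.84, and Insig2 89.54 ± 1.89 and 89.76 ± 4.78 (SD, n = 4 each), and none of these differences was called. In an exact two-sided permutation test of 4 against 4 libraries, the smallest p the design allows is 0.0286, and each of the 11 called members reached it. These members were picked on the same values, and the share of all genes that reach it was not counted. The permutation test therefore adds no support to the calls. Both it and limma take the libraries as independent. Those stored under the same number as Phago and NonPhago may not be, and then both overstate the evidence.

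**Figure D2:**
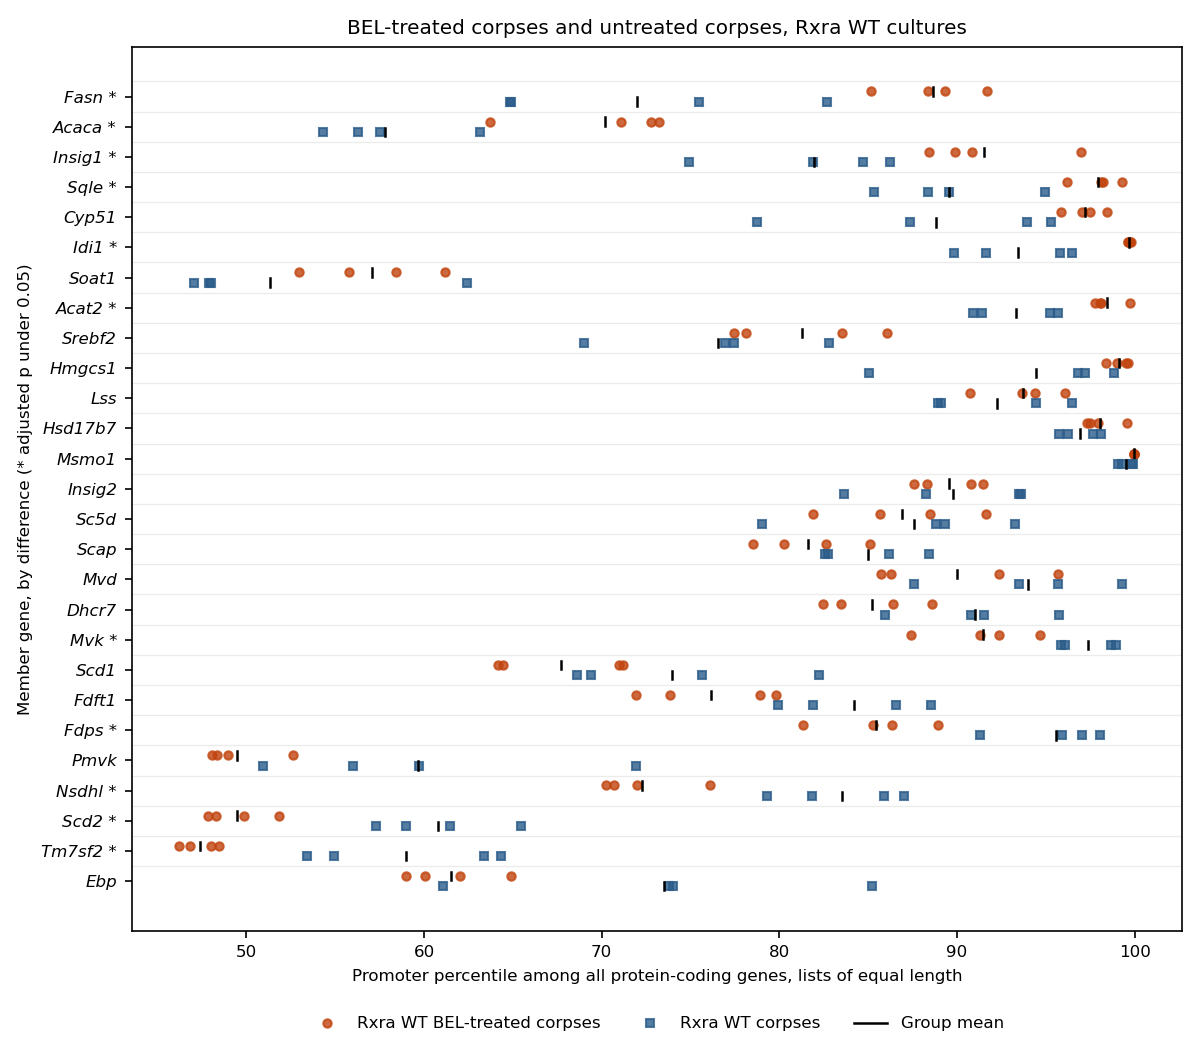
Promoter percentile in lists of equal length for the 27 tested members, ordered by difference; each point is 1 library of HFSCs with BEL-treated or untreated corpses, the bar is the group mean and an asterisk marks adjusted p under 0.05. Fasn has the largest difference of the called members (16.65 points), and Idi1 the tightest BEL group of those called, between 99.62 and 99.77.

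These calls moved together with a technical property of the libraries. The shortest peak a list holds follows the minimum length MACS3 accepts, which it takes from the fragment length. It was 144, 144, 144 and 145 bp in the libraries with BEL-treated corpses and 60, 80, 104 and 76 bp in those with untreated corpses. Within the untreated group, replicate 3 with the 104 bp minimum was highest for 3 of the 6 members called higher, Sqle, Acat2 and Fasn, whereas Idi1 was highest in replicate 4 (76 bp), Insig1 in replicate 2 (80 bp) and Acaca in replicate 1 (60 bp). The Rxra cKO corpse libraries, with minima of 81, 81 and 75 bp, read 97.33, 92.01 and 91.40 for Idi1 and 75.29, 75.33 and 71.09 for Fasn. The Rxra cKO libraries with AA, LPC and RA had minima of 137 and 133 bp and read 99.60 and 98.87 for Idi1 and 80.93 and 82.60 for Fasn, and the Rxra WT ones had minima of 104 and 219 bp and read 97.14 and 97.63 for Idi1 and 74.72 and 75.35 for Fasn. The part of this property in the differences was not tested, and treatment and fragment length cannot be told apart between these groups. Peak height as fold enrichment over background separated the groups for 1 of the 11 called members, Mvk, at 14.1, 15.3, 15.6 and 16.2 with BEL-treated corpses and 18.2, 17.8, 19.8 and 27.2 with untreated corpses. Idi1 overlapped, with 19.7, 19.5, 19.7 and 20.1 with BEL-treated corpses and 12.3, 15.0, 18.7 and 21.6 with untreated corpses. Separation by fold enrichment was not counted over all genes, so 1 of 11 is not read as few or many. With log2 fold enrichment in place of the percentile, 0 members and 418 of all genes were called.

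**Figure D3:**
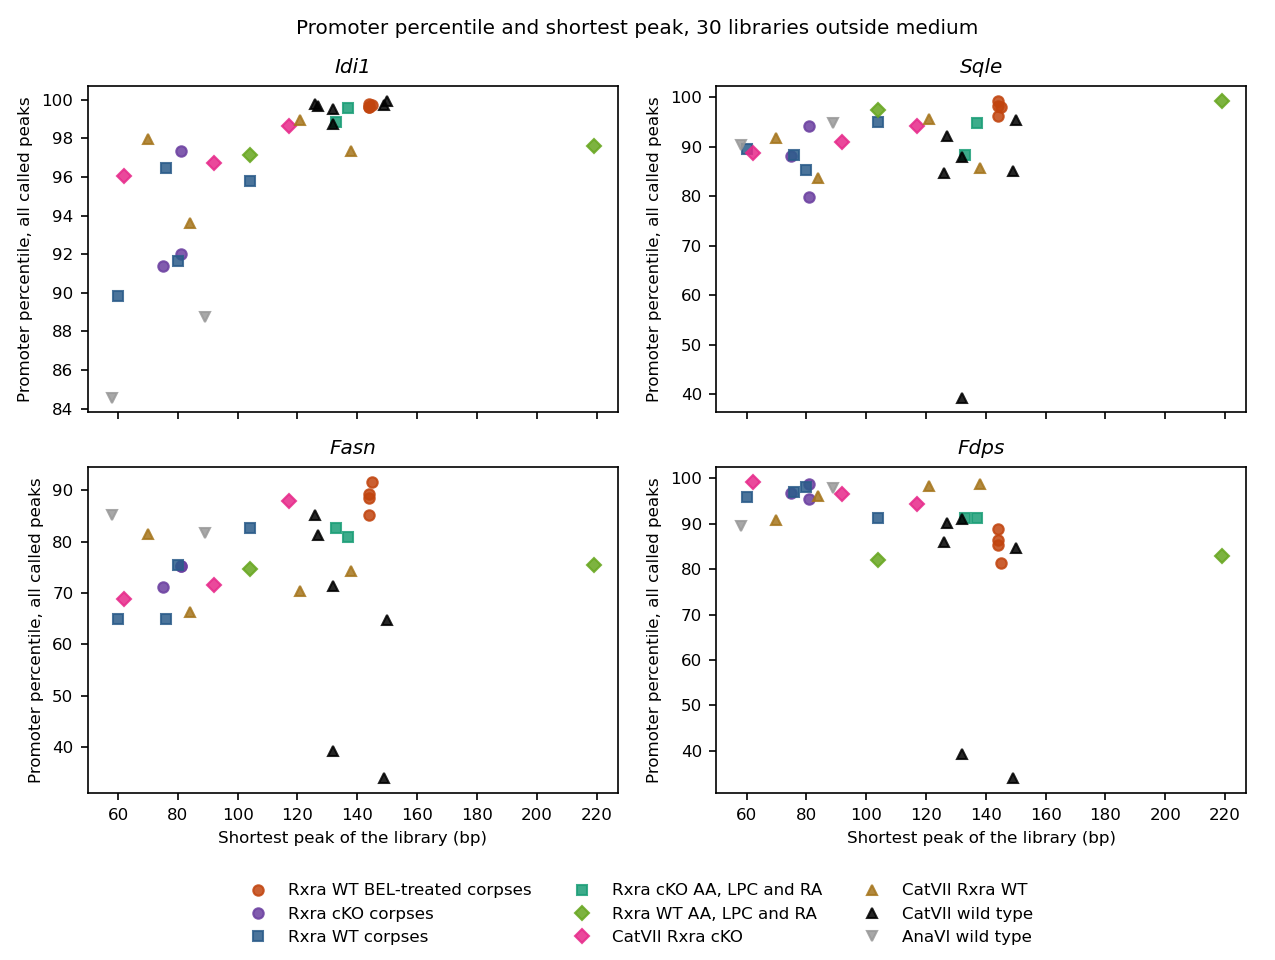
Promoter percentile with all called peaks (vertical axis) against the shortest peak of the library in bp (horizontal axis) for Idi1, Sqle, Fasn and Fdps in the 30 libraries outside medium, 1 point each, marked by group. The 4 libraries with BEL-treated corpses sit at 144 to 145 bp and the 4 with untreated corpses at 60 to 104 bp, so the groups do not overlap on the horizontal axis.

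The libraries with corpses also carried stored tags, Phago or NonPhago, 2 of each in both groups. With the tag as a term in the fit, 11 members were called. Within the NonPhago libraries 2 were called, Sqle and Idi1, and within the Phago libraries 1, Acaca, with 2 libraries a group. With percentiles corrected for promoter GC content, an alternative chosen after seeing the data, the split shifted to 2 higher (Acaca and Idi1) and 7 lower (Fdps, Mvk, Nsdhl, Tm7sf2, Scd2, Scap and Fdft1), so that Sqle, Acat2, Fasn and Insig1 were no longer called. Without BEL-treated replicate 1, 2, 3 or 4, the members called numbered 6, 7, 3 and 4, and without untreated replicate 4 they numbered 6. No share over all genes is set beside the counts of these alternatives, so they show only how the calls move. Of the marker genes of HFSCs, 11 of 12 had a promoter peak in every BEL library and 8 to 11 in the untreated ones. Sebocyte markers, genes of the lipid-producing gland cells, numbered 4 to 5 of 8 with BEL-treated corpses and 2 to 5 of 8 with untreated corpses. By promoter percentile, 4 of 11 HFSC markers tested were higher with BEL-treated corpses, Nfatc1 (25.10 points), Tbx1 (20.39), Itga6 (14.22) and Tcf7l1 (11.71), and 1 was lower, Sox9 (-14.54). Means with untreated corpses were 23.58 for Nfatc1 and 29.80 for Tbx1, at or near the value of genes with no peak. Both differences therefore lean on missing peaks. The immune marker Csf1r (-29.23 points) and the endothelial marker Pecam1 (-11.31) were lower, each the 1 gene of its list that was tested, and 0 of 2 melanocyte, 0 of 2 fibroblast and 0 of 3 sebocyte markers were called. The part of these markers in the member results was not tested.

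Between late catagen and anagen 2 members were called, and the sizes of both differences lean on AnaVI lists with no peak at the promoter. Acaca and Idi1 ranked higher in wild-type HFSCs at CatVII than at AnaVI, 2 of 22 members tested, and 0 members were lower. Among all 7577 genes tested, 8.04% were higher and 1.91% lower at CatVII, so the 2 members (9.09%) are about the share of genes at large. The median difference was 4.08 points over members and 9.55 over all genes. The lists held 8223 peaks here, and 6 members had too few promoter peaks to be tested.

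Acaca read 83.21, 89.63, 88.73, 76.85, 87.39 and 88.98 at CatVII. At AnaVI it read 42.36 and 40.10, the values of genes with no promoter peak in the trimmed lists. Acaca thus entered the test only through CatVII, and the difference of 44.57 points sets measured values against the floor of the list, so no p is read from it. In the untrimmed lists AnaVI replicate 2 did hold an Acaca promoter peak, with a percentile of 62.02, and with all called peaks the difference was 35.20 points and no longer called. Idi1 read 99.52, 99.95, 98.75, 99.70, 99.79 and 99.75 at CatVII, against 42.36, again without a peak in the trimmed list, and 88.73 at AnaVI. The difference of 34.03 points (SE 9.13, limma adjusted p = 0.0453) was no longer called when any 1 of the 6 CatVII libraries was left out. Its size rests on the AnaVI libraries: it was 10.85 points without AnaVI replicate 1, 57.21 without AnaVI replicate 2 and 12.93 with all called peaks, each still called, a lone AnaVI library being assumed to vary like the others. With the 3 CatVII libraries stored as NonPhago alone the Idi1 difference was 34.20 points and with the 3 stored as Phago 33.86, neither called (limma adjusted p = 0.286 and 0.277). Either set of 3, chosen after seeing the data, called 2 members, Acaca among them, with no share over all genes set beside it.

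Other members leaned the same or the opposite way without passing the test. Hmgcs1 averaged 95.63 ± 7.81 at CatVII (SD, n = 6) and 65.05 ± 32.09 at AnaVI (SD, n = 2), a difference of 30.58 points (limma adjusted p = 0.12). Msmo1 averaged 98.93 ± 0.85 at CatVII and 93.13 ± 4.34 at AnaVI (limma adjusted p = 0.0845). Mvd, the last decarboxylase of the mevalonate route, averaged 65.17 ± 21.71 at CatVII and 97.44 ± 0.04 at AnaVI, and Sc5d, a sterol desaturase, 52.91 ± 25.15 and 88.51 ± 0.19. Neither of these was called (limma adjusted p = 0.239 and 0.263), and both lacked a peak in some CatVII lists. AnaVI replicate 1 decides much of this comparison, since it has no peak in its trimmed list at Srebf2, Insig1, Insig2, Hmgcs1, Lss or Idi1. Without AnaVI replicate 2, replicate 1 stands alone, and no count of members is read from a lone library. The shortest peak was 126 to 150 bp in the CatVII lists and 58 and 89 bp in the AnaVI lists, so hair cycle stage and this property cannot be told apart here.

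**Figure D4:**
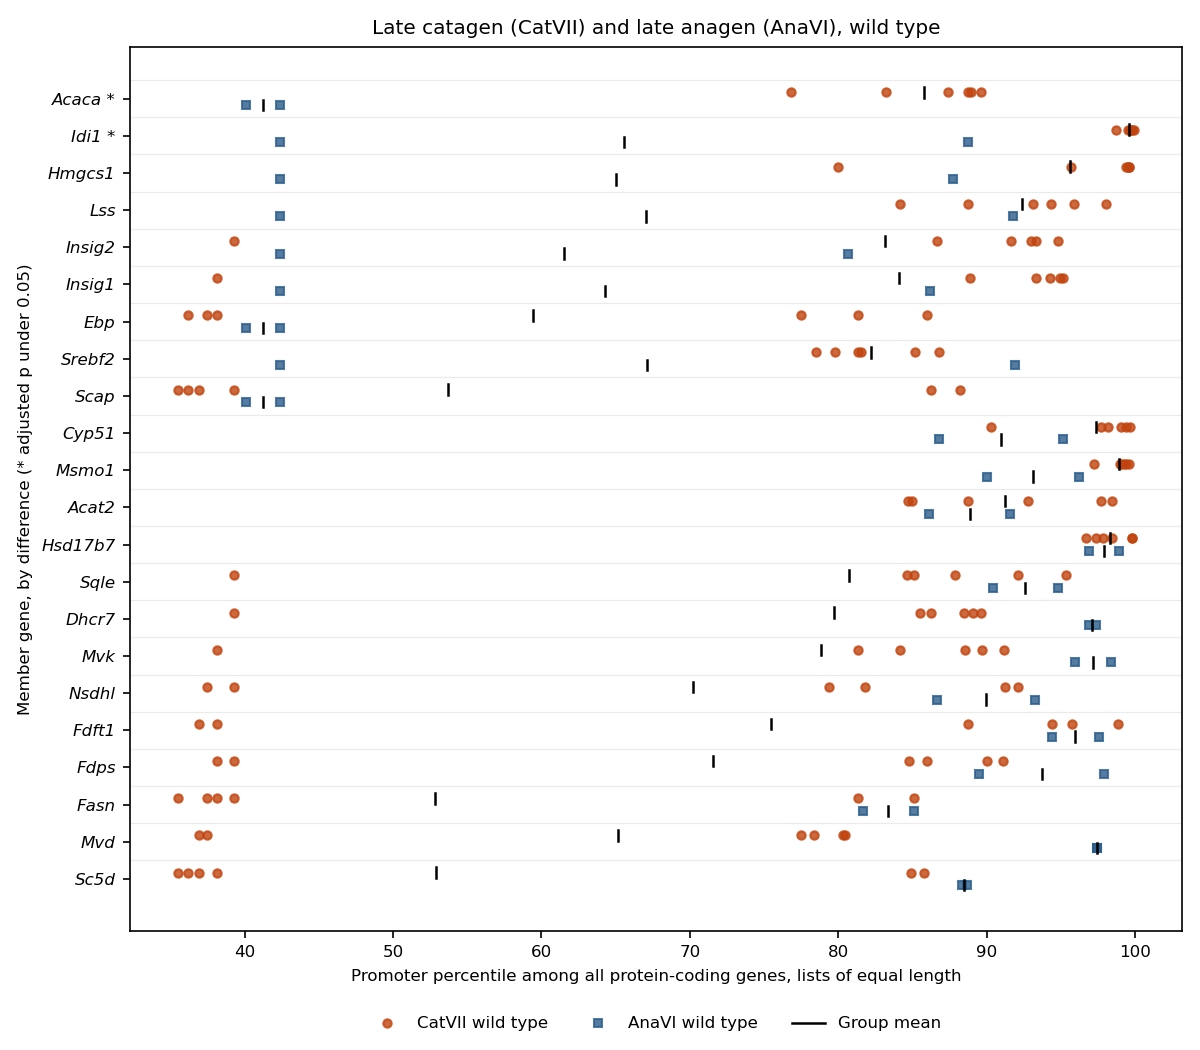
Promoter percentile in lists of equal length for the 22 tested members, ordered by difference, in 6 CatVII and 2 AnaVI wild-type libraries (points), with group means (bars) and an asterisk for adjusted p under 0.05. Values near 40 are genes with no promoter peak in that list; Acaca at AnaVI sits there in both libraries, and Idi1 in 1 of 2.

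At late catagen, no member was called between the Rxra genotypes. Of 26 members tested in Rxra cKO against Rxra WT HFSCs, 0 were called, and of all 11966 genes 0% were higher and 0% were lower. At an unadjusted limma p under 0.05 there were 6 members and 1387 genes, and with log2 fold enrichment in place of the percentile also 0 members. Idi1 read 98.66, 96.06 and 96.75 in Rxra cKO HFSCs and 97.99, 98.97, 97.36 and 93.64 in Rxra WT HFSCs, so the groups overlapped. Scd1 showed the largest difference, with 55.12, 27.35 and 52.69 in Rxra cKO HFSCs against 64.30, 64.25, 73.67 and 85.30 in Rxra WT HFSCs. The groups did not overlap, replicate 2 of the cKO having no peak in the list, but the adjusted p was 0.288 by limma (-26.83 points, SE 8.13). Ebp, a sterol isomerase, averaged 45.33 ± 15.72 in Rxra cKO HFSCs (SD, n = 3) and 66.50 ± 2.26 in Rxra WT HFSCs (SD, n = 4). Srebf2 averaged 95.38 ± 2.98 in Rxra cKO and 82.81 ± 10.28 in Rxra WT HFSCs, and Dhcr7, which makes cholesterol from its last precursor, 96.39 ± 0.86 and 85.95 ± 3.75. None of the 3 passed the adjustment (limma adjusted p = 0.339, 0.357 and 0.288). The stored tags read P42 in all 3 Rxra cKO libraries, 1 of them Phago, and P42 in 1 and P37 in 3 of the Rxra WT libraries, and with the P42 libraries alone, 3 against a single Rxra WT library assumed to vary like the others, 0 members were called. Without either of the Rxra cKO libraries stored as m2, 0 members were called as well. The stored numbers of the 3 P37 libraries run on from those of the CatVII wild-type libraries. Whether they belong with the Rxra mice or with the wild-type series cannot be told from the labels. The Rxra promoter itself had a peak in all 3 Rxra cKO libraries, which is no check of the deletion, since a promoter peak does not read the deleted coding sequence.

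In culture with corpses no member was called between the genotypes either. Of 27 members tested in Rxra cKO against Rxra WT HFSCs given corpses, 0 were called, while 0.173% of 12150 genes were higher and 0.0823% lower. At an unadjusted limma p under 0.05 there were 3 members and 1614 genes. Scd2 read 23.08, 22.90 and 46.54 in Rxra cKO HFSCs, against 65.46, 61.44, 57.31 and 59.01 in Rxra WT HFSCs. The first 2 of these are lists with no Scd2 promoter peak, and the groups did not overlap. The difference of -29.96 points (SE 6.33) had an adjusted p of 0.0818 by limma, and it was called when genes with few promoter peaks were kept in the fit. Acaca averaged 68.52 ± 2.76 in Rxra cKO HFSCs (SD, n = 3) and 57.81 ± 3.81 in Rxra WT HFSCs (SD, n = 4), and Ebp 57.04 ± 5.23 and 73.53 ± 9.85. Neither was called (limma adjusted p = 0.262 and 0.224). The libraries with BEL-treated corpses and the Rxra cKO libraries are compared with the same 4 Rxra WT libraries, so the values of Scd2 and Acaca in both contrasts share those 4 values.

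**Figure D5:**
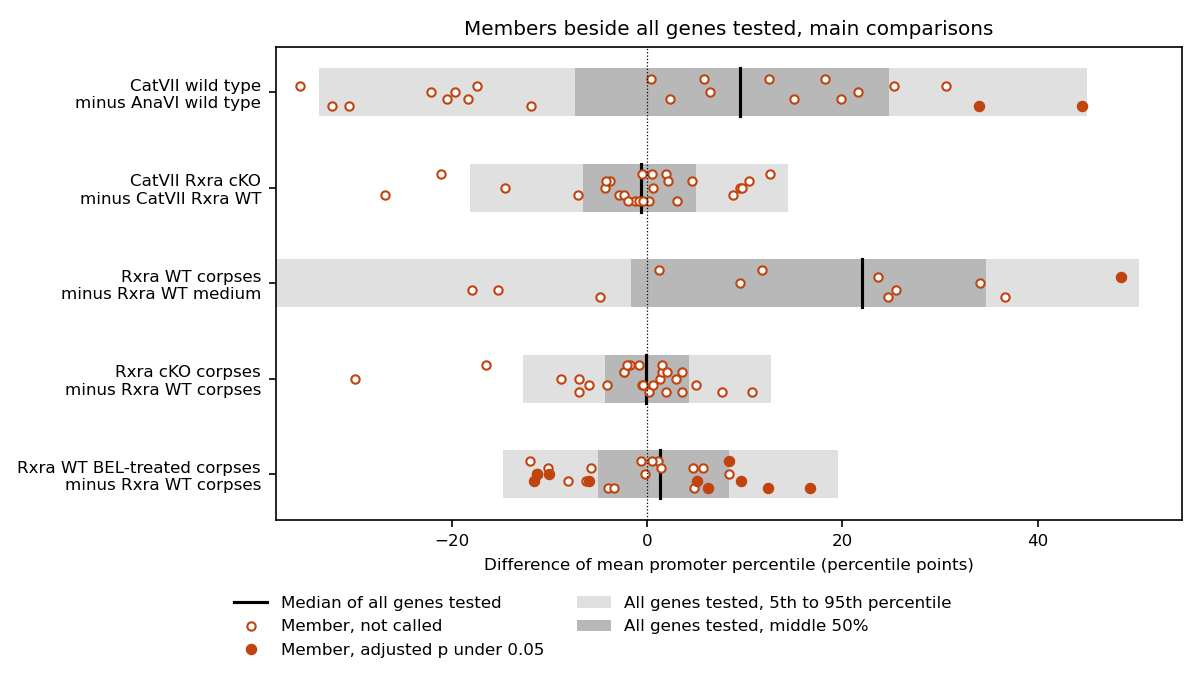
Difference of mean promoter percentile in the 5 main comparisons; grey bars span the 5th to 95th percentile and the middle 50% of all genes tested, the line is their median, and circles are members, filled where adjusted p was under 0.05. With BEL-treated corpses 11 members are filled on both sides of 0, whereas in both Rxra cKO comparisons 0 are.

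Corpses against medium could be compared only at the top of the lists, since the medium libraries held so few peaks. With 4812 peaks a library, 12 members and 2795 genes were tested. Fdps was higher with corpses, 1 of 12, and 0 members were lower, beside 16.3% of genes higher and 2.9% lower. Fdps read 95.94, 98.03, 91.28 and 97.06 with corpses, against 46.27 and 47.72 in medium, where it had no peak (48.58 points). It entered the test only through the corpse libraries, and both medium values are the floor of the list, so no p is read from it. Idi1 read 46.28 (no peak in the list), 91.66, 95.81 and 96.45 with corpses and 98.23 and 97.37 in medium, and was not called. Msmo1 was near the top in both, at 99.04, 99.30, 99.93 and 99.85 with corpses and 99.75 and 96.87 in medium. In the untrimmed lists 16 members were called, which compares 72047 to 114541 peaks with 4812 and 5709. Calls over all genes rose under this setting too, as given in the closing section. The shortest medium peaks measured 183 to 207 bp.

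The mixture of AA, LPC and RA was compared with medium in the same way. In Rxra WT HFSCs given AA, LPC and RA, 3 of 12 tested members were higher than in medium, Mvd, Sqle and Dhcr7, beside 38.6% of genes called in either direction. Mvd read 94.55 and 88.77 with the mixture and 46.27 and 47.72 in medium, and Sqle 97.38 and 99.17 with the mixture and 46.27 and 47.72 in medium. In Rxra cKO HFSCs 5 of 14 were called, with Mvd, Fdps, Msmo1 and Dhcr7 higher and Srebf2 lower than in Rxra cKO medium, beside 30.5% of genes. Srebf2 had no peak in the 2 trimmed lists with the mixture (42.28 and 42.31) and read 86.39 and 95.51 in medium. Rxra cKO HFSCs given corpses had 3 of 12 called against Rxra cKO medium, with Mvd and Fdps higher and Srebf2 lower, beside 27.7% of genes. Of these calls, only that of Msmo1 rests on peaks in both groups, since the other members had no peak in any trimmed list of their lower group. All these medium values come from the same 2 libraries per genotype. The Rxra WT libraries with the mixture were stored as Phago and the Rxra cKO ones, like the medium ones, as NonPhago.

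Between genotypes, 0 of 21 members were called in Rxra cKO against Rxra WT HFSCs with AA, LPC and RA, where 0% of 7800 genes were called. At an unadjusted limma p under 0.05 there were 1 member and 793 genes. The one member was Fdps, at 91.15 and 91.18 in Rxra cKO and 81.90 and 82.94 in Rxra WT HFSCs. In medium, Srebf2 and Sqle were higher in Rxra cKO than in Rxra WT HFSCs, 2 of 10 tested, beside 22.5% of genes, and both were at the floor in Rxra WT medium. Sqle read 94.64 and 99.22 in Rxra cKO medium, against 46.54 and 48.02, no peak, in Rxra WT medium. With 2 libraries a group the smallest exact permutation p is 0.333.

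Regions present in all libraries of 1 group and in none of the other were few around the members. In equal lists, BEL-treated against untreated corpses gave 1 region with BEL only and 2 with untreated corpses only, of 152 in the member windows, beside 2.26% and 0.729% of all regions. The BEL region lies in an intron of Elovl6 at chr3:129327113-129328136. The untreated ones lie upstream of Soat1 at chr1:156351552-156351678 and upstream of Scap at chr9:110110318-110110436. The Scap region was a narrow, very strong peak, with a mean rank of 47 in the untreated lists. Both are shorter than the 144 bp that the BEL lists accept, so those lists could not hold a peak of that length.

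At CatVII against AnaVI, 2 of 45 regions were particular to CatVII lists and 4 to AnaVI lists, beside 4.92% and 9.55% of all regions. The CatVII regions were in an intron of Msmo1 at chr8:65178976-65179900 and, in the Acat2 window, at the promoter of Sod2. The AnaVI regions included an intron of Insig2 at chr1:121189647-121190068, an intron of Nsdhl at chrX:71983700-71983988, the promoter of Pbxip1 beside Pmvk, and the same Scap region, shorter than the 126 bp that the CatVII lists accept. Rxra cKO against Rxra WT at CatVII gave 0 and 0 of 123 regions, beside 0.665% and 1.85%. With corpses, the Rxra cKO lists had 2 regions of their own and the Rxra WT lists 4, of 172, beside 3.63% and 1.79%. Those of the cKO were in an Elovl6 intron and at the promoter of Acat3, and those of the WT were upstream of Fdft1 and Mvd, inside Ccdc134 next to Srebf2, and in a UTR exon of Scd2 at chr19:44283822-44283947. All 6 were weak peaks, with mean ranks between 38414 and 62972 in lists of 72047.

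Against medium, Rxra WT corpses had 5 regions of their own and medium 0, of 26, beside 20.7% and 11.4% of all regions. They were the Fdps promoter at chr3:89008959-89009717, regions upstream of Insig2, Scd2 and Scap, and the promoter of Pygo2 in the Pmvk window. The Scap region is the one given above, and it is shorter than the shortest peaks of the Rxra WT medium lists, 207 and 195 bp. Those lists could not hold a peak of that length. It also counts among the regions of Rxra cKO corpses against medium below, where the shortest medium peaks were 183 and 201 bp. In the remaining comparisons the members had 10 of 24 regions particular to either group for Rxra cKO corpses against medium (36.1% of all regions), 4 of 16 for AA, LPC and RA against medium in Rxra WT HFSCs (45.1%) and 6 of 22 in Rxra cKO HFSCs (38.1%). Rxra cKO against Rxra WT HFSCs gave 3 of 52 with AA, LPC and RA (11.5%) and 3 of 12 in medium (22.1%). Member shares were below or near those of all regions in most of these. Outside medium, 1 member had a promoter peak in all untrimmed lists of some groups and in none of another, Soat1, present in all libraries with corpses, BEL-treated or not, and in both Rxra cKO libraries with AA, LPC and RA, and in neither AnaVI library. The AnaVI lists held 14181 and 52325 peaks. The Soat1 peak ranked 15535 to 24706 with BEL-treated corpses, 32214 to 62064 with untreated corpses and 46239 to 70147 in Rxra cKO corpses. The part of list length in its absence at AnaVI was not tested. Such presence was not counted over all genes, so it is not read as particular to the members.

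Of 22 further genes of the pathway, 18 were tested with BEL-treated against untreated corpses, where 3 were higher and 2 lower. This is about the share of all genes given above, 15.2% higher and 11.8% lower. The higher ones were Elovl5, an elongase, at a mean of 93.69 against 82.41 (limma adjusted p = 0.0119), and the SREBP proteases Mbtps1, at 78.92 against 65.14 (limma adjusted p = 0.0156), and Mbtps2, at 49.04 against 29.62. The mean of Mbtps2 with untreated corpses lies near the value of genes with no peak, so no p is read from it. Ggps1, which extends farnesyl diphosphate, was lower at 91.87 against 96.55, and Mlxipl, the carbohydrate-responsive activator ChREBP, at 66.95 against 83.35 (limma adjusted p = 0.0203 and 0.0169). At CatVII against AnaVI 1 of 14 was called, Mlxipl, lower at 37.25 against 87.53. It had no peak in any trimmed CatVII list, so AnaVI values are set against the floor and no p is read from it. In both Rxra cKO comparisons 0 were called, of 18 and 17 tested, and with corpses against medium Ggps1 was higher, 1 of 5. Ggps1 had no peak in the trimmed medium lists, so no p is read from that difference.

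Across the series, markers of the labelled cell type were present wherever lists were long. Of 12 HFSC marker promoters, libraries outside medium had 2 to 12 and medium libraries 0 to 3. Melanocyte markers numbered 0 to 3 of 6, immune 0 to 2 of 6, fibroblast 0 to 4 of 6, endothelial 0 to 4 of 4 and sebocyte 0 to 6 of 8. Their part in the member results was not tested.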

How the data were processed

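ATAC-seq was measured in 34 libraries of mouse HFSCs in 11 groups taken from the sample labels. Before deposit, the authors mapped the reads to the mm39 build (BWA 0.7.18), handled them with SAMtools 1.17 and called peaks per replicate with MACS3 3.0.0, without a control, at a q of 0.05 (tools and versions as in the submitters' processing notes). The deposited lists give each peak's fold enrichment (a ratio over local background), −log10 p, −log10 q (lowest 1.301) and a score. They hold 1935055 peaks, 4144 to 129876 a library. Read depth is unknown, so no counting interval is given.

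Lists were trimmed to equal length by −log10 p in each comparison. Promoter percentiles were tested with limma 3.58.1 in R 4.3.3 (trend, Benjamini-Hochberg, adjusted p under 0.05), filtered as the report states, and regions were merged at 1 bp of overlap. The code was tested on simulated data. The named members are those called, those with a group-specific region, and those with promoter peaks in all libraries of 1 group and none of another. Up to 6 promoters were eligible for printing, those with the sterol element first, then by mean percentile. Members and lists were chosen with earlier results of these data known. Alternatives were list length, promoter width, score, filter, window, overlap, replicates left out and the replicate block, with GC content and stored tags added after seeing the data. Peaks on other chromosomes or scaffolds were left out.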

Additional observations from a re-analysis of the deposited data

Results flagged for a closer look

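In groups of 4 to 6 libraries, 116 values were examined, promoter percentiles of members (all called peaks) and the share of peaks in member windows. In 16, all of them promoter percentiles, the highest or lowest library lay far from the rest by Dixon's ratio, where chance gives about 1 in 20. CatVII wild type replicate 3, the shortest CatVII list with 8223 peaks, accounts for several. It read 39.30, no promoter peak, for Scap, Insig2, Sqle and Dhcr7, where the other 5 libraries began at 69.95, 86.66, 84.61 and 85.50. It read 80.01 for Hmgcs1 (others from 95.70) and 98.75 for Idi1 (others from 99.52). CatVII wild type replicate 6 read 74.11 for Insig1 (others from 88.85) and 33.97, no peak, for Sc5d (others from 68.50). Replicate 5 read 90.32 for Cyp51 (others from 97.69) and 97.24 for Msmo1 (others from 99.02).

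CatVII Rxra WT replicate 4 was low for Insig2 at 59.24 (others 74.89 to 77.51) and for Fdft1 at 94.73 (others 97.33 to 97.60), and high for Nsdhl at 94.70 (others 83.13 to 84.04). Rxra WT corpses replicate 1, with the shortest minimum peak of its group at 60 bp, was low for Hmgcs1 at 85.04 (others from 96.81) and high for Soat1 at 62.41 (others up to 48.01). Replicate 3 of the BEL-treated corpses was high for Acat2 at 99.75 (others up to 98.09).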

How the results depend on the processing

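Read depth, the few medium peaks and groups of 2 libraries limit these comparisons, and the cause of each change below was not tested. Of 243 single-gene values under alternatives, 158 kept their call, 84 lost it and 1 reversed, Nsdhl with BEL-treated corpses on log2 fold enrichment (0.02, limma adjusted p = 0.963). For CatVII against AnaVI (2 members called), lists of 50% length, promoters within 500 bp and log2 fold enrichment each gave 1, and the replicate block 0. Leaving libraries out also moved the count, and no count of members is read from a fit left with 1 AnaVI library. Corpses against medium (1) gave 16 with all called peaks, 0 with 50% lists, 5 with fold enrichment, 4 with the replicate block and 1 to 3 with libraries left out. Rxra cKO against WT corpses (0) gave 1, Scd2, without the filter. BEL-treated against untreated corpses (11) gave 0 with fold enrichment, 2 and 1 within the NonPhago and Phago tags, 8 with the replicate block (5 higher, 3 lower) and 3 to 14 with libraries left out (6, 7, 3 and 4 without BEL replicates 1 to 4, and 6 without untreated replicate 4). Over all genes, calls ranged from 0 (block) to 1140 (Phago CatVII libraries) around 754 for CatVII against AnaVI, from 279 (50% lists) to 7057 (all peaks) around 537 for corpses against medium, from 0 (fold enrichment, block) to 168 (GC-corrected) around 31 for Rxra cKO against WT corpses, and from 418 (fold enrichment) to 3368 (as reported) for BEL-treated corpses, leaving out libraries aside. The replicate block changed no other call. Libraries with the same replicate number in their titles showed correlations from -0.14 to 0.12, taken on deviations from group means. In groups of 2 libraries these deviations mirror each other, and the stored numbers were not used. Pairing of libraries is therefore not excluded. Group-specific regions for CatVII against AnaVI (6) were 3 with a 10 kb window and 6 to 20 with libraries left out. For Rxra cKO against WT at CatVII (0) they were 2 with all peaks, 3 with 50% lists, 1 with summits within 250 bp, 10 within the P42 tag and 0 to 11 with libraries left out. For corpses against medium (5) they were 124 with all peaks, from lists of 72047 to 114541 peaks against 4812 and 5709. They were 3 with 50% lists, 1 with the 10 kb window and 5 to 10 with libraries left out. For Rxra cKO against WT corpses (6) they were 6 to 12 with libraries left out. For BEL-treated corpses (3) they were 5 with all peaks, 1 with the 10 kb window, 13 and 9 within the NonPhago and Phago tags, and 3 to 6 with libraries left out. No share over all regions is set beside these region counts under alternatives. They show only how the counts move and are not read as results about the members. The share of peaks in member windows moved with list length: at 4111 peaks it was 0.499% against 0.313% of all called peaks in CatVII wild type, 0.511% against 0.314% in AnaVI, 0.592% against 0.236% in CatVII Rxra cKO, 0.645% against 0.289% in CatVII Rxra WT, 0.541% against 0.229% with BEL-treated corpses, 0.454% against 0.213% in Rxra cKO corpses, 0.48% against 0.228% in Rxra WT corpses, 0.559% against 0.226% and 0.511% against 0.268% with AA, LPC and RA in Rxra cKO and Rxra WT, and 0.243% against 0.209% in Rxra WT medium.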
